A study of Mus musculus with 4 samples.

Results

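Brown adipose tissue releases proteins that act on other organs or on the nerves, vessels and immune cells around it. The 10 genes described here encode such factors: Fgf21, Nrg4, Gdf15, Slit2, Metrnl, Pltp, Pm20d1, Ptgds, Il6 and Fgf9. They were chosen by gene symbol, with earlier results of these data known, and each matched 1 of the 55387 rows of deposited values. RNA was sequenced from the brown fat of 4 males, 15 weeks old and housed at 22 to 24 °C, with 1 library per mouse. The 2 controls were Sox4f/f littermates, labelled wild type, which carry floxed Sox4 alleles. The 2 Sox4-MKO mice carry the same floxed alleles and a Cre recombinase driven by Myf5, which is active in progenitors of both brown adipocytes and skeletal muscle. Levels are in FPKM, fragments scaled by transcript length and by the number of mapped fragments. This allows for transcript length and depth, but not for differences in RNA composition between libraries. Comparisons between libraries therefore depend on the scaling, and results with other scalings are given under the alternatives below.

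Nrg4, Fgf21, Gdf15 and Fgf9 encode growth factors. NRG4 is an EGF-family ligand that reaches hepatocytes, FGF21 is an endocrine hormone of fasting and mitochondrial stress, GDF15 acts on the hindbrain, and FGF9 is a paracrine factor. SLIT2, METRNL and IL-6 signal to neurons, immune cells and adipocytes. PLTP, PM20D1 and PTGDS handle lipids outside the cell. PLTP moves phospholipids between lipoproteins, PM20D1 joins fatty acids to amino acids to give uncoupling lipids, and PTGDS makes prostaglandin D2 and carries lipophilic molecules. Cold and adrenergic signalling induce several of these genes in brown fat.

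Before the members are compared, the state of the libraries has to be given. Depth was estimated from the smallest values at 12100000 to 16200000 fragments per library. All 12 brown fat and adipocyte markers were above 0 in each library, and their sum was 15868 and 16079 FPKM in the controls, above the 11125 and 14290 FPKM of the Sox4-MKO mice. This sum includes the general adipocyte genes Fabp4, Adipoq, Plin1 and Pparg. Fabp4, the largest value in it, overlapped, at 5801 and 6334 FPKM in Sox4f/f and 5416 and 7518 FPKM in Sox4-MKO. Of the 12 markers, 8 were lower in Sox4-MKO without overlap and 4 overlapped, so the sum does not follow the brown fat genes alone. The 5 white adipocyte markers summed to 214 and 165 FPKM in Sox4f/f and 514 and 599 FPKM in Sox4-MKO, with 4 of them higher without overlap. Sox4, the targeted gene, was at 1.98 and 1.06 FPKM in the controls and at 0.981 and 3.06 FPKM in the mice labelled Sox4-MKO, so its mRNA did not follow the label and every direction below rests on that label. Other genes did separate the labelled groups. The thermogenic gene Ucp1 had 1935 and 1814 FPKM in Sox4f/f and 733 and 1105 FPKM in Sox4-MKO. Retn had 137 and 111 FPKM against 425 and 510.1 FPKM. Of the 12877 genes averaging above 1 FPKM in either genotype, 29.6% were lower and 21.7% higher in Sox4-MKO without overlap. Genes that separate the groups were therefore common and do not establish the genotype. Skeletal muscle RNA was unequal. The 6 muscle markers summed to 158 and 591 FPKM in Sox4f/f mice 1 and 2, against 11489 and 2060.1 FPKM in Sox4-MKO mice 1 and 2, with Acta1 at 4512 FPKM in Sox4-MKO mouse 1. The 8 progenitor markers summed to 242 and 248 FPKM in Sox4f/f and 498 and 524 FPKM in Sox4-MKO, and all 8 macrophage markers and all 6 mast cell markers were higher in both Sox4-MKO libraries than in either Sox4f/f library. Of the 5 mesothelial markers, Upk3b, Wt1 and Upk1b were listed at 0 throughout, while the sum of the list, nearly all of it Lrrn4, was 0.967 and 0.534 FPKM in Sox4f/f and 1.07 and 1.11 FPKM in Sox4-MKO, and the B and T cell list stayed between 2.05 and 5.32 FPKM. In whole tissue, fewer cells of a type and less RNA per cell cannot be told apart. The part of these other cells in the results below was not tested, and for the tested members values without Sox4-MKO mouse 1 are given beside those with it.

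**Figure D1:**
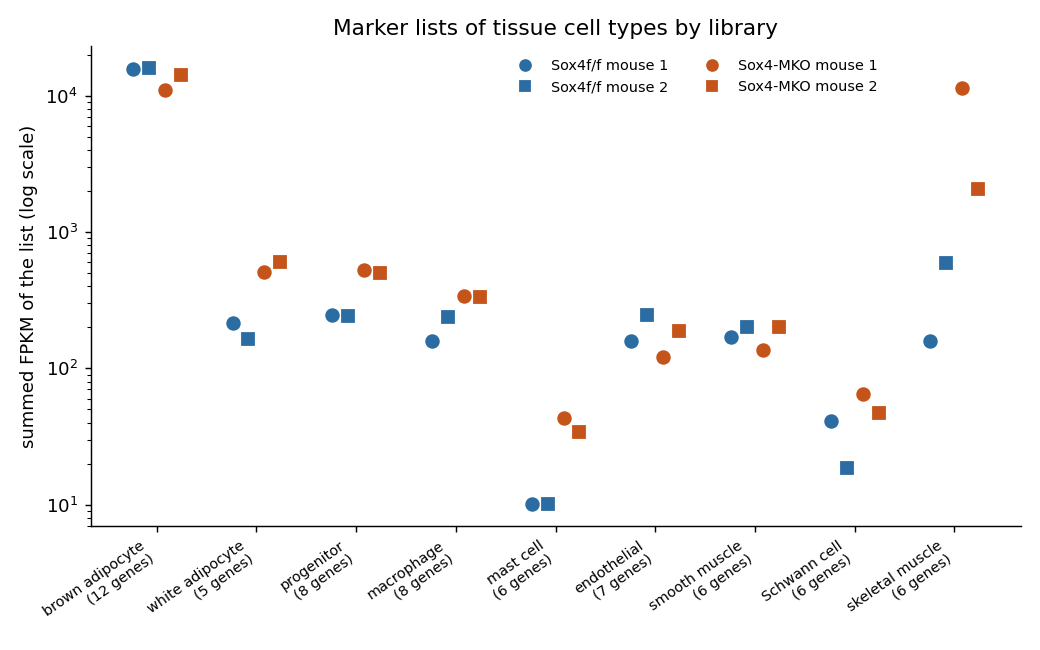
Summed FPKM of each marker list (log axis) in the 4 libraries, with a point per mouse. The skeletal muscle list spans 158 to 11489 FPKM and is highest in Sox4-MKO mouse 1, and the brown adipocyte sums of both Sox4-MKO mice (11125 and 14290 FPKM) lie below those of both Sox4f/f mice (15868 and 16079 FPKM). The brown adipocyte list includes general adipocyte genes, and Fabp4 is the largest value in its sum.

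The 10 members covered a wide range of levels. In Sox4f/f the order by averaged FPKM was Nrg4, Pltp, Pm20d1, Metrnl, Ptgds, Gdf15, Fgf9, Slit2, Fgf21 and Il6, from 66.9 down to 0.050 FPKM. In that order, Metrnl and Ptgds, Gdf15 and Fgf9, and Slit2 and Fgf21 overlapped between the 2 mice and so did not differ beyond their spread. In Sox4-MKO, Nrg4 and Pltp kept the highest places, at 65.5 and 45.4 FPKM, and Ptgds came next, through a single library. Its range included those of Metrnl and Pm20d1, so these 3 genes had no order beyond the spread between mice. A gene entered the test if its average over the mice of either genotype exceeded 1 FPKM, which kept 6 members. Fgf21, Slit2, Il6 and Fgf9 did not pass and are given as values. Gdf15 passed only through its Sox4f/f average.

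The comparison of genotypes asked how the tissue's gene expression differs when Sox4 is targeted in Myf5-expressing progenitors. Of the 6 tested members, Pltp was higher and Pm20d1 lower in Sox4-MKO with an unadjusted limma p under 0.05, 1 in each direction, where 7.95% of all 12877 tested genes were called higher and 8.28% lower. With Benjamini-Hochberg adjustment over all tested genes, none of the members and 0.0% of all genes had an adjusted p under 0.05. Metrnl and Pltp were higher without overlap between the genotypes and Pm20d1 was lower without overlap, against 21.7% and 29.6% of all tested genes in those directions and 51.3% in either, while the other 3 overlapped. These shares are not far from the background, so the counts are no result about the members as a group. With 2 mice against 2, an exact permutation test of a single gene cannot give a p below 0.333. Log2 fold changes below are of FPKM + 1, Sox4-MKO minus Sox4f/f, a scale that understates the change of low genes.

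**Figure D2:**
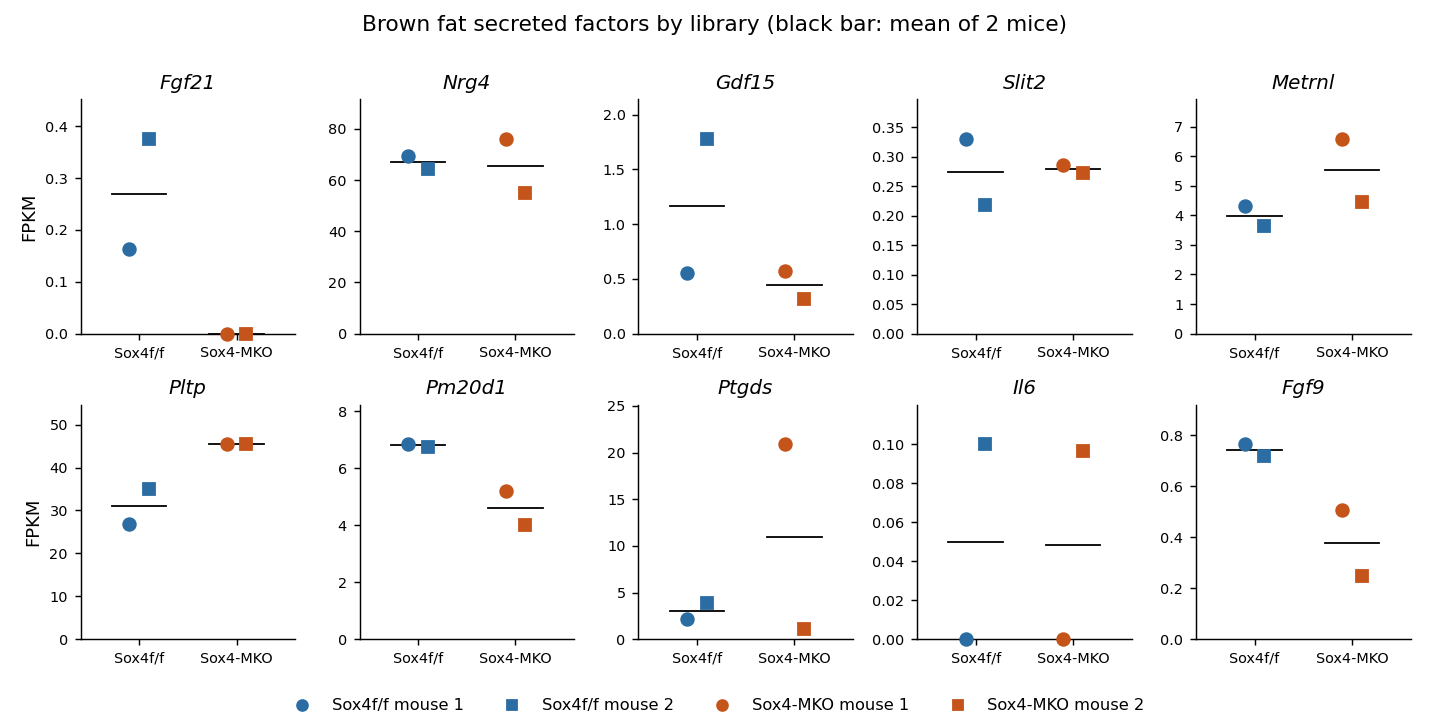
FPKM of each of the 10 members (linear axes from 0, a separate scale per gene) in 2 Sox4f/f and 2 Sox4-MKO mice, with a point per library and a black bar at the mean. Pltp and Metrnl are higher, and Pm20d1 and Fgf9 lower, in both Sox4-MKO libraries, Fgf21 is listed at 0 in both, and Ptgds is high in Sox4-MKO mouse 1 only.

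The promoters of Fgf21 and Gdf15 are shown because both genes are classical targets of the integrated stress response, whose transcription factor is ATF4. Sequences are the 250 bases before the RefSeq start site on GRCm38.p6, the patch release of mm10, read 5′ to 3′ on the gene's minus strand. Capitals mark a match to the ATF4 composite motif TGATGNAA in Fgf21 and to the SOX core ACAAAG in Gdf15.
Fgf21, chr7:45615491-45615740: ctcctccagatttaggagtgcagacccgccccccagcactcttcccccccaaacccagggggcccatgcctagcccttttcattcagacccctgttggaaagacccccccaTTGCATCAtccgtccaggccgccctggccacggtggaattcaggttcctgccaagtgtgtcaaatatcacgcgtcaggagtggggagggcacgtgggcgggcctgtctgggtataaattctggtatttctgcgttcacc
Gdf15, chr8:70632457-70632706: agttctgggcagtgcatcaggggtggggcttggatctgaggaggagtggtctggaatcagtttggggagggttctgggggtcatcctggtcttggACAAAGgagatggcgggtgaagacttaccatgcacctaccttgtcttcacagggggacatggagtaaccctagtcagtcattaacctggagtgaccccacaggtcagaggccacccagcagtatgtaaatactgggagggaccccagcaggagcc
Both strands were searched for TGATGNAA, for the SOX cores ACAAAG and ACAATG, for the palindromic EBF motif and for the cAMP response element TGACGTCA, and no match overlapped another in the promoters shown. The match in Fgf21, on the opposite strand, began at position -139 relative to the start site, and TGATGNAA occurs in 3.45% of 32851 promoter windows of the same length. The match in Gdf15 began at position -155, and ACAAAG occurs in 16.5% of windows. A second Gdf15 start site in the table had no match, and neither Gdf15 window held TGATGNAA. A match in these letters is a description and not a binding site.

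Nrg4 lies on the minus strand of chromosome 9 (GRCm38, 55220222 to 55326844) and was the most abundant member. It had 69.5 and 64.3 FPKM in Sox4f/f mice 1 and 2 and 76.2 and 54.8 FPKM in Sox4-MKO mice 1 and 2. The 2 Sox4-MKO libraries lay on either side of both controls. The means were 66.9 ± 3.68 FPKM and 65.5 ± 15.1 FPKM (SD, n = 2 mice each). Its log2 difference, -0.05, had a 95% interval from -0.55 to 0.46 and an adjusted p of 0.917 by limma. Leaving out Sox4-MKO mouse 1 gave -0.28, and leaving out Sox4-MKO mouse 2 gave 0.19. An interval of this width leaves room for changes in either direction. The exons of Nrg4 share 368 bases with Fbxo22 on the opposite strand. The sample labels give a stranded library and the study's methods a TruSeq kit, so whether strand was used in counting is not known.

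Fgf21, on chromosome 7 from 45613886 to 45615490 on the minus strand, was at the edge of detection. It had 0.163 and 0.377 FPKM in Sox4f/f, from about 2 and 4 fragments, and was listed at 0 in both libraries labelled Sox4-MKO. An exact 0 in these values can also be a failed estimate. A count of 0 allows up to 3 fragments, equal to 0.250 and 0.194 FPKM in Sox4-MKO mice 1 and 2, which is above the value of Sox4f/f mouse 1. Loss of the transcript was therefore not shown at this depth, and no fold is given.

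Gdf15 encodes a distant member of the TGF-beta superfamily and lies on chromosome 8 from 70629393 to 70632456 on the minus strand. It had 0.554 and 1.78 FPKM in Sox4f/f and 0.568 and 0.314 FPKM in Sox4-MKO. Sox4f/f mouse 2 stood above the other 3 libraries, which lay between 0.314 and 0.568 FPKM, so the genotypes overlapped. About 33 fragments lay behind its value, with a Poisson 95% interval from 22.7 to 46.3, against about 11, 11 and 8 in the others. Such intervals cover counting error only. The log2 fold change was -0.53 ± 0.38 (SE), with a limma adjusted p of 0.513. Leaving out Sox4f/f mouse 1 gave -0.95 and leaving out Sox4-MKO mouse 1 gave -0.66, whereas without Sox4f/f mouse 2 the gene no longer passed the FPKM limit.

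Fgf9, on chromosome 14 from 58070547 to 58112720 on the plus strand, had 0.765 and 0.718 FPKM in Sox4f/f and 0.506 and 0.249 FPKM in Sox4-MKO. All 4 values were under 1 FPKM, and both Sox4-MKO libraries lay below both controls. The ratio of the means was 0.509. About 37 and 31 fragments in Sox4f/f stood against about 23 and 15 in Sox4-MKO, not scaled for depth. Of their Poisson 95% intervals, those of Sox4f/f mouse 1 (26.1 to 51.0) and Sox4-MKO mouse 2 (8.4 to 24.7) were separate and the other pairs between genotypes overlapped. With a limit of 0.1 FPKM in place of 1, its log2 fold change was -0.34 with an unadjusted p of 0.104 by limma and an adjusted p of 0.479.

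Slit2 encodes an axon guidance protein, a fragment of which is released by thermogenic fat. It lies on chromosome 5 from 47983138 to 48307733 on the plus strand and had 0.331 and 0.218 FPKM in Sox4f/f and 0.286 and 0.272 FPKM in Sox4-MKO. The Sox4-MKO values lay between those of the controls, and the ratio of the means was 1.02. Il6, the cytokine gene on the same chromosome from 30013114 to 30019981, was listed at 0 in mouse 1 of each genotype and at 0.1 and 0.096 FPKM in mouse 2 of Sox4f/f and Sox4-MKO. These values correspond to about 3 and 4 fragments, so no difference in Il6 was detectable at this depth.

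Metrnl encodes meteorin-like, a cold- and exercise-induced factor that acts on immune cells, and lies on chromosome 11 from 121701544 to 121716306 on the plus strand. It had 4.32 and 3.63 FPKM in Sox4f/f and 6.60 and 4.46 FPKM in Sox4-MKO. The genotypes did not overlap, but Sox4-MKO mouse 2 exceeded Sox4f/f mouse 1 by little. The means were 3.97 ± 0.492 and 5.53 ± 1.52 FPKM (SD, n = 2 mice each), a ratio of 1.39. On the log2 scale it was higher by 0.38 ± 0.23 (SE), with a limma adjusted p of 0.470. Without Sox4-MKO mouse 1, the library with the most muscle RNA, the difference was 0.14, and without Sox4-MKO mouse 2 it was 0.62.

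Pltp, on chromosome 2 from 164839518 to 164857711 on the minus strand, was the tested member with the smallest p. It had 26.9 and 35.1 FPKM in Sox4f/f and 45.5 and 45.4 FPKM in Sox4-MKO. The 2 Sox4-MKO mice were nearly identical and both lay above the controls. The means were 31.0 ± 5.78 and 45.4 ± 0.043 FPKM (SD, n = 2 mice each), 1.47 times higher in Sox4-MKO. On the log2 scale the difference was 0.55, with a 95% interval from 0.11 to 0.98, a limma p of 0.024 unadjusted and 0.247 adjusted. The difference stayed at 0.55 when either Sox4-MKO mouse was dropped. It fell to 0.36 when Sox4f/f mouse 1 was dropped and rose to 0.73 when Sox4f/f mouse 2 was. The unadjusted call held only in the last of these fits. With all libraries but no moderation, the unadjusted limma p was 0.098. The Pltp exons share 495 bases with Ctsa on the opposite strand, with the same limit as for Nrg4.

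Pm20d1, on chromosome 1 from 131797381 to 131821473 on the plus strand, was lower. It had 6.85 and 6.76 FPKM in Sox4f/f and 5.22 and 4.01 FPKM in Sox4-MKO. The controls agreed closely and both Sox4-MKO mice lay below them. The means were 6.81 ± 0.066 and 4.61 ± 0.858 FPKM (SD, n = 2 mice each), a ratio of 0.678. On the log2 scale the difference was -0.48 ± 0.18 (SE), with a limma p of 0.048 unadjusted and 0.304 adjusted. It reached -0.64 when Sox4-MKO mouse 1 was left out, and only -0.33 when Sox4-MKO mouse 2 was. The unadjusted p passed 0.05 narrowly and was above it in 9 of the alternatives, with the same sign in all of them.

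Ptgds, on chromosome 2 from 25466709 to 25470046 on the minus strand, was decided by a single library. It had 2.13 and 3.87 FPKM in Sox4f/f, 20.9 FPKM in Sox4-MKO mouse 1 and 1.09 FPKM in Sox4-MKO mouse 2. The 2 Sox4-MKO mice were thus the highest and the lowest of the 4. About 238 fragments lay behind the highest value, with a Poisson 95% interval from 209 to 270, against about 16 to 42 in the other mice. The log2 difference of 0.79 ± 1.15 (SE) had a limma adjusted p of 0.752. It turned to -0.90 without Sox4-MKO mouse 1 and was 2.49 without Sox4-MKO mouse 2. The library with the high Ptgds value is also the one with 11489 FPKM of muscle markers and the highest Schwann cell sum (64.6 FPKM against 18.7 to 46.8), and the part of those cells was not tested.

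**Figure D3:**
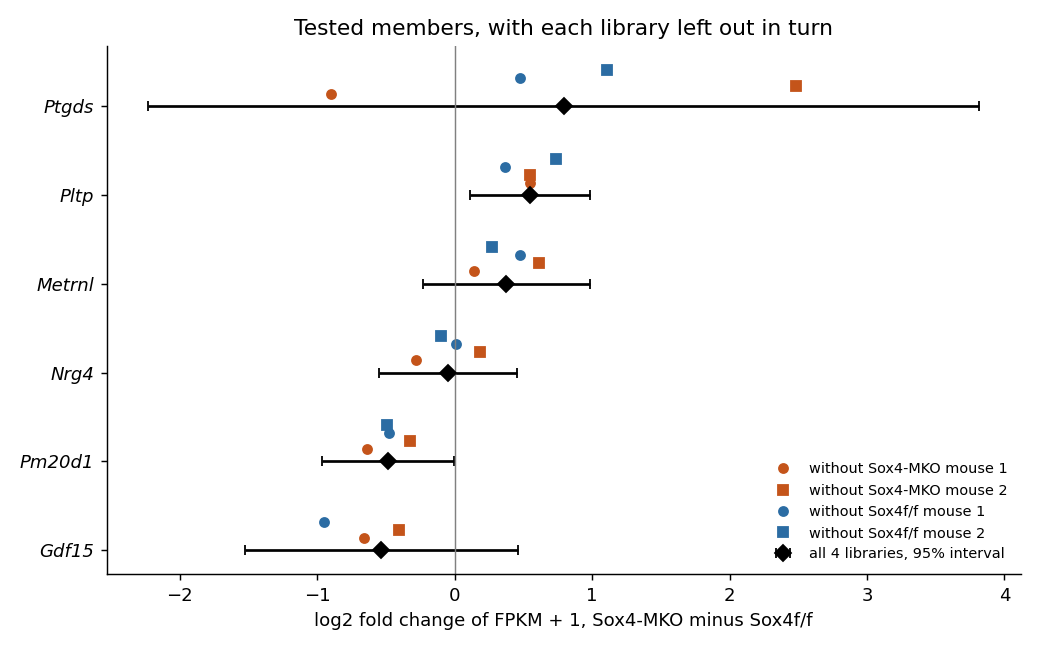
Log2 fold change of FPKM + 1 for the 6 tested members, with the 95% interval of the limma fit (black) and the value with each library left out (coloured by genotype). Only the intervals of Pltp (0.11 to 0.98) and Pm20d1 lie to one side of 0, and the values of Ptgds run from -0.90 to 2.49.

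The receptors of these factors were measured in the same tissue. Of 18 receptor genes, 12 passed the filter. In Sox4-MKO 2 were lower and 0 higher at an unadjusted p under 0.05, against 8.28% and 7.95% of all tested genes. The median log2 fold change was -0.03 against -0.05 for all tested genes. The number lower was 0 without Sox4-MKO mouse 1 and without either Sox4f/f mouse, and 3 without Sox4-MKO mouse 2, and the median was 0.12 without Sox4-MKO mouse 1 and -0.18 after quantile normalization. The FGF21 receptor Fgfr1 had 25.8 and 32.9 FPKM in Sox4f/f and 33.6 and 33.1 FPKM in Sox4-MKO, a log2 difference of 0.19 ± 0.16 (SE), or 0.18 without Sox4-MKO mouse 1. Its co-receptor Klb, which encodes beta-Klotho, had 19.3 and 18.9 FPKM in Sox4f/f and 12.5 and 20.99 FPKM in Sox4-MKO. Klb was thus lower in Sox4-MKO mouse 1 only, and its log2 fold change of -0.22 became 0.13 without that mouse. Both parts of the FGF21 receptor were far above the ligand, on the FPKM scale.

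The FGF9 receptor Fgfr2 had 2.98 and 2.88 FPKM in Sox4f/f and 1.24 and 1.93 FPKM in Sox4-MKO, the largest negative difference of the receptor list without overlap. Its log2 fold change was -0.62, with an adjusted p of 0.299 by limma, and -0.43 without Sox4-MKO mouse 1. Fgfr3 overlapped, at 4.49 and 2.98 FPKM in Sox4f/f and 3.04 and 2.00 FPKM in Sox4-MKO. For NRG4, the receptor mRNA Erbb4 was scarce, at 1.49 and 0.927 FPKM in Sox4f/f and 0.625 and 0.630 FPKM in Sox4-MKO. The mRNA of the ligand was thus far above that of its receptor in this tissue, on the FPKM scale. The GDF15 receptor Gfral, a gene of the hindbrain, was listed at 0 in every library. Its signalling partner Ret had 0.802 and 1.11 FPKM in Sox4f/f and 1.30 and 1.65 FPKM in Sox4-MKO, the largest positive difference of the list without overlap (log2 fold change 0.34, adjusted p = 0.514 by limma, and 0.44 without Sox4-MKO mouse 1). Ret passed the FPKM limit only through Sox4-MKO, where it was higher, so its place in the list is no support for a difference.

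Among the Robo genes, the Slit receptor genes Robo1 and Robo2 were under 0.5 FPKM in every library. The endothelial family member Robo4 had 15.2 and 14.5 FPKM in Sox4f/f and 8.98 and 10.4 FPKM in Sox4-MKO. The log2 difference was -0.57 ± 0.15 (SE), with a limma adjusted p of 0.226, and -0.47 when Sox4-MKO mouse 1 was left out. The 7 endothelial markers had a median log2 difference of -0.24, with 5 of them negative, from -0.14 for Pecam1 to -1.07 for Cldn5, and Kdr lower without overlap (-0.44). Without Sox4-MKO mouse 1 the differences were -0.45 for Cldn5, -0.11 for Kdr and -0.08 for Pecam1. Those of Cdh5, Vwf, Tek and Emcn were then 0.01, 0.06, 0.09 and 0.85. None of the 7 had an unadjusted limma p under 0.05, and the part of endothelial cells in the Robo4 value was not tested. Kit, reported as a METRNL receptor and also a mast cell gene, overlapped at 3.57 and 5.98 FPKM in Sox4f/f and 5.11 and 8.15 FPKM in Sox4-MKO. The IL-6 receptor chains were present, with Il6ra at 3.66 to 6.50 FPKM and the shared chain Il6st at 26.9 to 32.2 FPKM, and their log2 fold changes were 0.30 and 0.16, or 0.12 and 0.14 without Sox4-MKO mouse 1. The prostaglandin D2 receptor Ptgdr was listed at 0 in every library, and Ptgdr2 did not exceed 0.041 FPKM.

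Of 10 partner enzymes and carriers, 5 were tested. Of the 5, 1 was lower and 0 higher at an unadjusted p under 0.05, against 8.28% and 7.95% of all tested genes. The 1 lower gene, Apoe, lost that call after quantile normalization and without either Sox4f/f mouse. Apoe, which encodes a lipoprotein component, had 2177 and 2155 FPKM in Sox4f/f and 1345 and 1414 FPKM in Sox4-MKO. Both Sox4-MKO mice lay far below the controls, -0.65 ± 0.12 (SE) on the log2 scale with a limma adjusted p of 0.196, or -0.32 after quantile normalization and -0.61 without Sox4-MKO mouse 1, and in the direction opposite to Pltp. Ptgs1, the cyclooxygenase gene upstream of PTGDS, had 2.21 and 2.06 FPKM in Sox4f/f and 2.93 and 2.78 FPKM in Sox4-MKO, with a log2 fold change of 0.30 (adjusted p = 0.473 by limma), or 0.27 without Sox4-MKO mouse 1.

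Relatives of the members were taken as a separate list. Of 22 genes of the same families, 10 were tested and all 10 had a positive log2 fold change, 8 of them at an unadjusted p under 0.05, with a median of 0.85. Over all tested genes, 7.95% were higher at that threshold. Of the 10 relatives, Fgf13, Fgf7 and Cntf passed the FPKM limit only through Sox4-MKO, where they were higher, so the counts of this list are a description and no support. The other 7, above the limit in both genotypes, all had a positive value, 6 of them at that threshold, with a median of 0.89. Without Sox4-MKO mouse 1, 5 of the 10 were higher at that threshold and the median was 0.62, and without Sox4f/f mouse 1 or mouse 2 the numbers were 3 and 4. Fgf13, which encodes an intracellular FGF homologue and not a secreted factor, had the largest value of a list that it entered only through Sox4-MKO. It had 0.627 and 0.216 FPKM in Sox4f/f and 4.87 and 2.14 FPKM in Sox4-MKO, 1.61 ± 0.39 (SE) on the log2 scale with a limma adjusted p of 0.216. It was 1.16 without Sox4-MKO mouse 1. Among relatives named after their values were seen, Fgf10 had 2.56 and 1.50 FPKM in Sox4f/f and 5.16 and 5.52 FPKM in Sox4-MKO, and Slit3 had 5.52 and 5.75 against 9.73 and 9.10 FPKM. Metrn, the paralogue of Metrnl, had 3.32 and 5.09 FPKM in Sox4f/f and 13.1 and 6.90 FPKM in Sox4-MKO. Without Sox4-MKO mouse 1 the log2 differences of Fgf10, Slit3 and Metrn were 1.13, 0.61 and 0.62. All 7 progenitor markers other than Dlk1 were also higher in both Sox4-MKO libraries, beside the muscle values above. Dlk1 was lower without overlap, at 2.20 and 2.94 FPKM in Sox4f/f and 1.99 and 1.73 FPKM in Sox4-MKO. The part of progenitors or muscle was not tested.

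A wider list of 21 genes, not all of them established as factors that brown fat releases, had 18 tested genes, with a median log2 fold change of 0.24. Mstn passed the FPKM limit only through Sox4-MKO, at 5.34 and 0.313 FPKM in mice 1 and 2. The other 17, above the limit in both genotypes, had a median of 0.23. At an unadjusted p under 0.05, where 8.28% of all tested genes were lower and 7.95% higher, 3 of the list were lower and 5 higher. Without Sox4-MKO mouse 1 these numbers were 2 and 3 and the median 0.046, without Sox4f/f mouse 1 they were 1 and 3 with a median of 0.064, without Sox4f/f mouse 2 they were 2 and 4 with a median of 0.41, and without Sox4-MKO mouse 2 they were 2 and 8 with a median of 0.32. Epdr1, a secreted ependymin-related protein, had 0.871 and 2.68 FPKM in Sox4f/f and 21.1 and 4.32 FPKM in Sox4-MKO. The log2 difference of 2.05 ± 0.77 (SE), with a limma adjusted p of 0.303, was 1.02 when Sox4-MKO mouse 1 was left out and 3.08 when Sox4-MKO mouse 2 was, so its size depended on these libraries. Kng2, a kininogen gene, had 57.2 and 54.8 FPKM in Sox4f/f and 31.1 and 21.6 FPKM in Sox4-MKO, -1.08 ± 0.20 (SE) on the log2 scale with a limma adjusted p of 0.196. Leaving out Sox4-MKO mouse 1 gave -1.33, and leaving out the other Sox4-MKO mouse gave -0.83.

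Among 13 genes for transcriptional regulators and stress-response factors linked to the members, 8 were lower and 0 higher at an unadjusted p under 0.05, with a median log2 fold change of -0.55, and 5 were lower without Sox4-MKO mouse 1 or without Sox4f/f mouse 1. Over all tested genes, 8.28% were lower and 7.95% higher at that threshold. The brown adipocyte markers, 2 of which are also in the regulator list, were lower without overlap in 8 of 12 cases. This compares with 29.6% of all tested genes, and the part of brown adipocytes was not tested. Ppargc1a, the coactivator gene, had the largest negative value without overlap, -1.21 ± 0.37 (SE) with a limma adjusted p of 0.254, -1.16 when Sox4-MKO mouse 1 was left out and -0.67 when Sox4f/f mouse 1 was. Nfkb1 had the only positive one without overlap, 0.11. Of the stress factors upstream of Fgf21 and Gdf15, which were chosen after their values were seen, Atf4 had 98.4 and 104 FPKM in Sox4f/f and 69.2 and 69.8 FPKM in Sox4-MKO. The log2 difference of -0.54 ± 0.11 (SE), with a limma adjusted p of 0.207, stayed between -0.58 and -0.50 whichever library was left out. Ddit3, which encodes CHOP, had 43.9 and 29.7 FPKM in Sox4f/f and 24.7 and 18.3 FPKM in Sox4-MKO, a log2 difference of -0.74, or -0.95 without Sox4-MKO mouse 1 and -0.47 without Sox4f/f mouse 1. A second row with the symbol Ddit3 was listed at 0 in every library and was not tested. Both stress factors were lower in Sox4-MKO without overlap, none passed the adjusted threshold, and Fgf21 and Gdf15 themselves were too low to rank beside them.

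**Figure D4:**
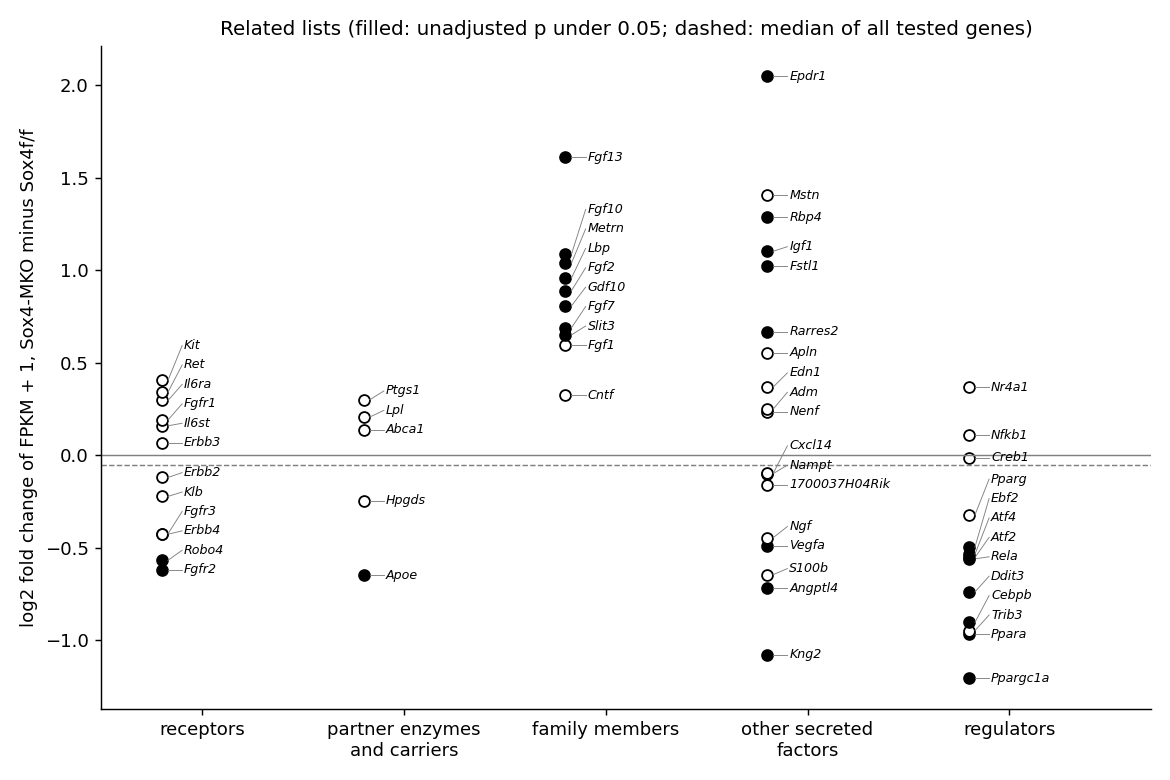
Log2 fold change of FPKM + 1 for the tested genes of 5 lists related to the members, with a circle per gene, filled at an unadjusted limma p under 0.05. The family members all lie above 0 with a median of 0.85, 3 of them tested only through their Sox4-MKO average, most regulators lie below 0 with a median of -0.55, and the receptors lie around the median of all tested genes (dashed, -0.05).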

How the data were processed

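RNA sequencing of whole brown fat from 4 mice was used. The authors deposited FPKM values, 1 per gene row and library, and no counts. The submitters' processing notes name Cufflinks 2.1.1, Cuffdiff and mm10, without saying which step each was used for. The aligner and the annotation are not given in the sources used here. Depth was therefore estimated from genes with a single GENCODE M21 transcript of at least 1500 nt, whose smallest FPKM multiplied by length cluster at the value of 1 fragment. Fragment numbers per member use the longest coding transcript and are approximate, and their intervals cover counting error only.

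FPKM values were put on the log2(FPKM + 1) scale and compared between genotypes with limma 3.58.1 (R 4.3.3, trended prior, no covariate), over the 12877 genes that averaged more than 1 FPKM in either genotype. p-values are two-sided, with Benjamini-Hochberg adjustment over all tested genes. The replicates are separate mice, and the controls are littermates of the Sox4-MKO mice, without a statement of which mice share a litter. The fit was tested on simulated data for 12877 genes, with a log2 difference of 1 in 200 of them. With the unadjusted threshold of 0.05, 85.5% of the changed genes were recovered and 5.87% of the others were called, and after adjustment 0% were recovered. The log2 differences of Pltp and Pm20d1, 0.55 and -0.48, were smaller in size than 1, and recovery at their size was not tested. The members and the lists of receptors, enzymes, relatives, other factors, regulators and cell markers were chosen with earlier results of these data known. Named are the members, their receptors, in each list the gene with the largest positive and the largest negative difference without overlap, the 3 genes most like each of 2 members, and genes stated as chosen otherwise. A promoter was found for 9 of the 10 members in a RefSeq table. Alternatives were a replicate block, 3 scalings, pseudocounts of 0.1 and 0.01, FPKM limits of 5 and 0.1 and none, a fit without moderation and leaving out each library.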

Additional observations from a re-analysis of the deposited data

How the results depend on the processing

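No member had an adjusted p under 0.05 by limma under any alternative, the smallest being 0.112, for Ptgds without Sox4-MKO mouse 2. Pltp was the member higher at an unadjusted p under 0.05 in the reported fit, and Pm20d1 the lower one. The number lower was 0 with the replicate block, after rescaling without mitochondrially encoded genes and Ucp1, with FPKM limits of 5 and 0.1, and without moderation, which also gave 0 higher. It was 1 with no FPKM limit, but that gene was Fgf21. With each library left out, both numbers ranged from 0 to 1, and the genes were not always the same, since Gdf15 was the lower one without Sox4f/f mouse 1 and Ptgds the higher one without Sox4-MKO mouse 2. Over the 5 related lists, with 12, 5, 10, 18 and 13 tested genes, 14 genes were lower and 13 higher, where 8.28% and 7.95% of all tested genes were called in these directions. The 13 include Fgf13 and Fgf7, which passed the FPKM limit only through Sox4-MKO. The lists were also chosen with earlier results known, so these counts are a description and no support. The counts of the lists were 6 and 7 without moderation, and 7 were higher with a limit of 5. With each library left out they ranged from 6 to 12 and from 6 to 17. The shared mouse numbers are not stated to pair the mice, and the within-genotype differences of same-numbered mice had a correlation of -0.012 across 12877 genes, so the block is only an alternative. With it, 13 related genes were lower and 9 higher, Pltp kept its unadjusted call, and Pm20d1 had an unadjusted p of 0.059. Signs turned for Nrg4, to 0.032 after quantile normalization and 0.024 after the rescaling, and with each library left out it ranged from -0.28 to 0.19 (0.01 without Sox4f/f mouse 1). They also turned on leaving out a library for Ptgds (range -0.90 to 2.49) and Klb (-0.58 to 0.13), and for Sox4 (-0.32 to 0.71, and -0.07 without Sox4f/f mouse 2). The cause was not tested. Of all genes called at an unadjusted p under 0.05, 51.0% were lower in the reported fit and 36.1% after the rescaling. Depth limits Fgf21 and Il6, with at most about 4 fragments per library.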

Other observations

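The tested genes whose 4 log2 values lay closest to those of Ptgds, by the Euclidean distance of values centred on their mean, were Gm12224 (distance 0.59), Tfrc (0.67) and Scn4a (0.87). Tfrc, the transferrin receptor gene, had 25.7 and 28.6 FPKM in Sox4f/f and 108 and 16.9 FPKM in Sox4-MKO mice 1 and 2. Scn4a, the sodium channel gene of skeletal muscle, was at 5.25 FPKM in Sox4-MKO mouse 1 and listed at 0 in the other 3 libraries. These 3 genes were picked for their closeness to Ptgds, so the peak in Sox4-MKO mouse 1 that they share with it follows from the selection. Scn4a entered the test only through that library. The part of muscle RNA was not tested. For Pltp the closest genes were Bicc1 (0.043), Ldb2 (0.044) and 2310015A10Rik (0.060), and Ldb2 had 2.37 and 3.34 FPKM in Sox4f/f and 4.54 and 4.76 FPKM in Sox4-MKO. With 4 libraries, many genes lie close to any pattern.

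Of the other promoter windows searched, that of Il6 held 1 match to each SOX core, ACAAAG at position -65 and ACAATG at position -130 relative to the start site, the latter on the opposite strand. ACAATG occurs in 10.7% of all windows. Nrg4, Slit2, Metrnl, Pltp, Ptgds and Fgf9 had no match to the 5 motifs.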
